A study of Rattus norvegicus with 98 samples.

Results

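Rats that had inhaled formaldehyde at 2 ppm for 19 days were compared with rats that had inhaled air for 19 days, with attention to transcripts of immune cells. The comparison rests on 8 of the 98 arrays of the series, 4 from animals of each group, and it covers all 31042 probe sets that are not Affymetrix controls. The 2 ppm animals carry the numbers 230, 232, 233 and 234, and the air animals the numbers 73, 75, 76 and 77. All were male F344/NCrl rats, 8 weeks old by the labels, exposed in whole-body chambers 6 h a day, 5 days a week. Each animal gave 1 array, so every replicate is a separate animal. For the dose series at 19 days, 4 animals at 0.7 ppm and 4 at 6 ppm were also used, and for the time series 4 animals at 2 ppm and 5 in air at 8 days. The labels name no altered allele, no second agent and no pooling of RNA. Cells were released by proteases from the lateral meatus and nasoturbinate of the level II section of the nose, so the RNA comes from a mixture of cells.

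Inhaled formaldehyde reacts with proteins and DNA where it is absorbed, in the rat mostly in the lining of the nose. That lining holds resident macrophages and dendritic cells, T cells and natural killer cells beside its epithelial cells, and lymphocytes also gather in follicles below it. Macrophages and dendritic cells take up particles and show peptides on major histocompatibility complex (MHC) class II molecules, while every nucleated cell shows peptides on class I. Transcripts of such cells in a mixed sample stand for how many of them there are and for how much RNA each carries, and fewer cells of a type cannot be told apart from less RNA per cell.

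The deposited values are log2 intensities. Array medians over the series lay between 5.93 and 6.07. Over all probe sets, arrays within the 2 ppm group correlated at 0.9767 to 0.9913, and those within the air group at 0.9864 to 0.9934. RNA integrity numbers were 8.6 to 8.7 in 3 of the 2 ppm animals, with none given for animal 230, against 8.3 to 8.5 in the 4 air animals (exact permutation test, two-sided, p = 0.0571, the smallest value the 35 splits allow). The part of RNA integrity in the results below was not tested beyond a fit that holds it as a covariate. Markers of the labelled epithelium were present: Krt5, a keratin of basal cells, lay at 11.07 to 12.58 in 2 ppm animals and at 11.40 to 11.82 in air animals. Olfactory epithelium was discarded by the labels, but Omp, the marker protein of mature olfactory neurons, lay at 12.14 to 13.28 in 2 ppm animals and at 11.25 to 12.74 in air animals. Precision is set by the 4 animals in each group.

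No probe set passed the test between 2 ppm and air at 19 days. Of 31042 probe sets, 0 (0%) had an adjusted p under 0.05 in limma, and the smallest adjusted p was 0.223. An unadjusted p under 0.05 was reached by 2682 probe sets, 1016 with a higher mean at 2 ppm (3.27%) and 1666 with a lower mean (5.37%). The groups did not overlap in 1278 probe sets (4.12%), with all 2 ppm values higher in 398 (1.28%) and lower in 880 (2.83%). Counted over genes, each by its brightest probe set, 59.4% of 14217 genes lay below air, with a median difference of -0.03 on the log2 scale. An unadjusted p under 0.05 was met by 1156 genes with a lower mean (8.13%) and by 403 with a higher mean (2.83%), and 534 genes lay wholly below air (3.76%) against 138 wholly above (0.971%). A fit of the 8 arrays alone also called 0. With the air animals of 8 and 19 days together as the control 143 probe sets were called, and with those of all 5 times 1418, but these controls differ from the 2 ppm animals in time of collection.

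Since nothing was called, the leading genes were taken by the smallest unadjusted p among those whose groups did not overlap, and none of them passed the test. The 12 that lay below air were Bmal1, H2-Q7-ps1, Ctsz, Gsdmd, Ifi35, Cyb561d2, Coa4, Rabggta, Htra2, Rab29, Snx17 and Cope. Rabggta differed by -0.44 on its brightest probe set, but by -0.04 and -0.05 on its other probe sets. Cyb561d2, a cytochrome b561 family member, had values of 7.67, 7.44, 8.03 and 7.58 in 2 ppm animals and of 8.32, 8.15, 8.09 and 8.10 in air animals, a difference of -0.48 ± 0.10 (SE, n = 4 each, adjusted p = 0.223). The highest exposed animal, 233, came within 0.1 of the lowest air animal, and without it this gene was the 1 probe set called, at -0.60 (adjusted p = 0.00551). Bmal1, the activating factor of the circadian clock, averaged 6.15 ± 0.15 in 2 ppm animals and 6.72 ± 0.22 in air animals (SD, n = 4 each), which is 1.48-fold lower (adjusted p = 0.394). Cope, a subunit of the coat of vesicles that return from the Golgi, showed the smallest difference of the 12, -0.28 ± 0.06.

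Of the 12 genes below air, 4 more are given by animal or by mean. Gsdmd, the pore-forming protein of inflammatory cell death, had 6.52, 6.15, 6.59 and 5.96 in 2 ppm animals, against 6.85, 6.79, 6.76 and 6.76 in air animals. Its air animals were tightly grouped, while the exposed animals spread over a wider range below them. Ctsz, a lysosomal cathepsin rich in macrophages, had 8.65, 8.23, 8.76 and 8.33 in 2 ppm animals, against 9.22, 9.07, 8.88 and 8.89 in air animals. Ifi35, an interferon-induced protein, averaged 8.37 ± 0.27 in 2 ppm animals and 8.86 ± 0.17 in air animals. H2-Q7-ps1, named by its annotation as a class I related pseudogene, averaged 7.83 ± 0.26 in 2 ppm animals and 8.37 ± 0.15 in air animals, and its probe set may share signal with other class I genes. In Gsdmd, Ctsz, Ifi35 and H2-Q7-ps1 animals 232 and 234 had the lowest values of the 8 animals.

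The 12 leading genes above air were Spetex2l2, Irs2, Ubr3, Irgq, Slc38a2, Cep350, Gpatch8, Suz12, Skida1, Rc3h2, Zc3h3 and Atxn1l, with differences of 0.22 to 0.83. Irs2, an adaptor of the insulin receptor, had 7.54, 8.25, 7.49 and 8.23 in 2 ppm animals, against 6.91, 7.38, 7.40 and 7.38 in air animals. Animals 232 and 234 stood highest for it. Slc38a2, a carrier of small neutral amino acids, was even within the exposed group, at 10.31, 10.37, 10.33 and 10.33, against 9.81, 9.92, 10.07 and 9.97 in air animals, with a difference of 0.39 ± 0.13 (adjusted p = 0.453). Suz12, a subunit of the Polycomb complex that methylates histone H3, averaged 8.08 ± 0.25 in 2 ppm animals and 7.73 ± 0.10 in air animals. The other 2 probe sets of Atxn1l lay on the other side of 0, at -0.08 and -0.10, so its direction depends on the probe set.

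Immune transcripts lay below air in a larger share than all genes, without a single call. Of 386 genes on 17 immune lists, 306 had a probe set; 254 of these (83%) lay below air, against 59.4% of all genes, and their median difference was -0.26, against -0.03 for all genes. An unadjusted p under 0.05 with a lower mean was found for 77 of the 306 genes (25.2%, against 8.13% of all genes), and with a higher mean for 2 (0.654%, against 2.83%), Bcl11b and Cd55. 20 genes (6.54%, against 3.76%) lay wholly below air and 1, Cd55, wholly above. The smallest adjusted p among the 306 was 0.419. The medians of 16 of the 17 lists lay below 0, in a range of -0.50 to 0.03 over the 17 lists. The members of a list share cells and animals, so these counts describe the 8 animals and are not independent tests.

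The 4 exposed animals were not alike. Animals 232 and 234 were the 2 lowest of the 8 animals in 13 of the 17 lists and lay below all 4 air animals in 13, while animals 230 and 233 both lay within or above the range of the air animals in 13. Air animal 73 was the highest of the 8 in 15 lists. Without animals 232 and 234 the median of the 306 immune genes was -0.04, and without air animal 73 as well it was 0.01. With any single animal left out it lay between -0.35 and -0.17. It was -0.17 with the air animals of 8 and 19 days as the control and -0.12 with those of all 5 times.

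**Figure D1:**
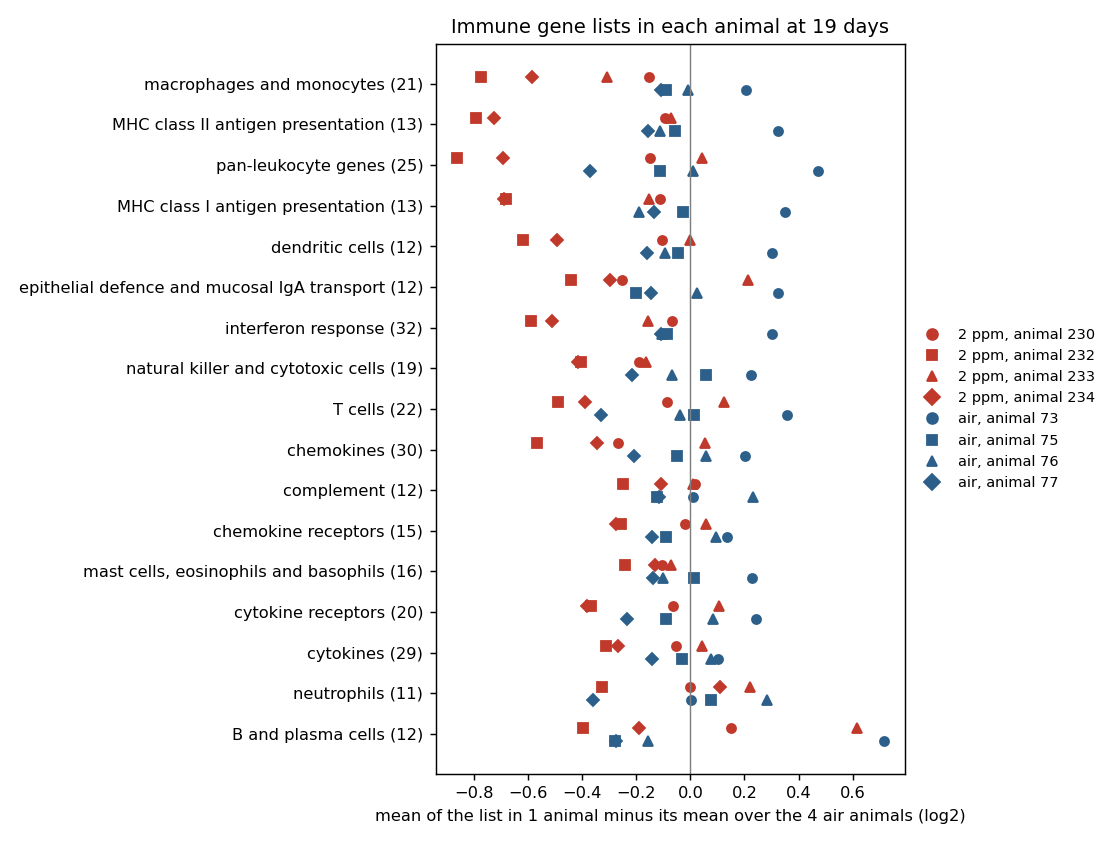
Mean log2 level of each of 17 immune gene lists in each animal, minus the mean of that list over the 4 air animals, on the x axis, with the number of genes measured behind each list name. Red points are the 2 ppm animals (upper in each row), blue points the air animals (lower). Animals 232 and 234 form the left edge in 13 of the lists, and air animal 73 the right edge in 15.

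Pan-leukocyte genes, which nearly all white blood cells share, show this split plainly. Of 25 measured genes, 24 lay below air, with a median of -0.44. An unadjusted p under 0.05 was found for 9, all lower (against 8.13% of all genes). Their mean level was 7.55, 6.84, 7.75 and 7.01 in 2 ppm animals and 8.18, 7.59, 7.71 and 7.33 in air animals, so that 232 and 234 lay below every air animal and 230 and 233 inside the air range. Among the 82 animals of the first array set, counted from the lowest, 232 ranked 2 and 234 ranked 8, while air animal 73 ranked 82. Ptprc, the CD45 phosphatase that defines leukocytes, had 8.14, 6.62, 8.55 and 7.27 in 2 ppm animals, against 8.85, 7.85, 8.02 and 7.66 in air animals, a difference of -0.45 ± 0.33 (adjusted p = 0.688). Coro1a, a coronin of the leukocyte cytoskeleton, had the smallest p of the list, at -0.65 ± 0.28 (adjusted p = 0.530). Without 232 and 234 the difference of Ptprc was 0.25 and the median of the list -0.02.

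Olfactory transcripts ran the other way in the same animals. The mean of 13 olfactory genes was 10.10, 11.02, 9.93 and 11.16 in 2 ppm animals and 9.25, 10.53, 10.21 and 10.33 in air animals, and 3 of the 13 lay below air. Animal 234 ranked 82 and animal 232 ranked 79 of 82, the side of most olfactory signal, and air animal 73 ranked 7. Gnal, the G protein subunit of the olfactory receptor pathway, had 11.64, 12.59, 11.35 and 12.97 in 2 ppm animals, against 10.28, 12.08, 11.57 and 11.68 in air animals, with a difference of 0.73 ± 0.58 (adjusted p = 0.707). The list median of 0.55 became -0.06 without 232 and 234. The 2 animals low in leukocyte genes were therefore the 2 highest in olfactory genes, and the part of this tissue mixture in the immune values was not tested. Erythroid genes, a sign of blood in the sample, also lay below air in 6 of 6 genes with a median of -0.29, and Hbb, a globin, averaged 14.51 ± 0.02 in 2 ppm animals and 14.62 ± 0.04 in air animals.

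**Figure D2:**
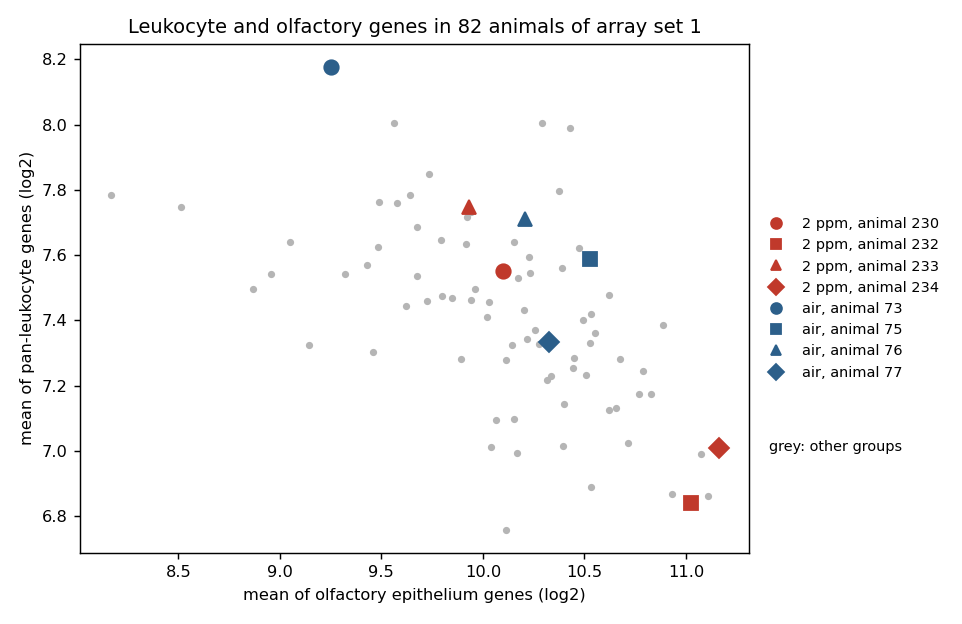
Mean log2 level of pan-leukocyte genes (y axis, 25 genes) against that of olfactory epithelium genes (x axis, 13 genes) in the 82 animals of the first array set. Red marks are the 4 animals at 2 ppm and blue marks the 4 air animals at 19 days, and grey dots the animals of other groups. Animals 232 and 234 lie at the lower right and air animal 73 at the upper left, while the other 5 animals lie between them.

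Macrophage and monocyte genes were the list with the lowest median, -0.50, and all 21 measured members lay below air. An unadjusted p under 0.05 with a lower mean was found for 13 (against 8.13% of all genes) and full separation below air for 6 (against 3.76%), C1qa, C1qb, C1qc, Aif1, Adgre1 and Fcer1g. The C1q subunits, which tissue macrophages make and which start the classical complement pathway, all lay below air in every exposed animal. C1qa had 8.81, 8.08, 8.73 and 8.59 in 2 ppm animals, against 9.49, 9.17, 9.02 and 9.38 in air animals, which is 1.64-fold lower at -0.71 ± 0.24 (adjusted p = 0.453). C1qa is among the 6 genes picked out by full separation, so animals 230 and 233 also lay below every air animal by that choice. C1qb averaged 7.83 ± 0.31 in 2 ppm animals and 8.46 ± 0.24 in air animals, and C1qc 8.10 ± 0.28 in 2 ppm animals and 8.76 ± 0.18 in air animals. Fcer1g, the signalling chain of Fc receptors, averaged 9.35 ± 0.38 in 2 ppm animals and 10.03 ± 0.22 in air animals.

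Other macrophage genes overlapped. Csf1r, the receptor for the growth factor that keeps macrophages alive, had 7.97, 7.46, 7.54 and 7.45 in 2 ppm animals, against 8.28, 7.83, 8.09 and 8.00 in air animals, and 1 exposed animal, 230, lay inside the air range. Cd68, a lysosomal protein of macrophages, differed by -0.50 ± 0.20 (adjusted p = 0.520). The mean of the list was 7.56, 6.94, 7.41 and 7.13 in 2 ppm animals and 7.92, 7.63, 7.71 and 7.61 in air animals, so the groups did not overlap. Its median was -0.24 without animals 232 and 234, and lay between -0.58 and -0.38 with any single animal left out. Over the 11 planned settings other than leaving out an animal it lay between -0.63 and -0.27.

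Genes of MHC class II antigen presentation lay below air in 12 of 13, with a median of -0.49. An unadjusted p under 0.05 with a lower mean was found for 9 (against 8.13% of all genes). None of the 13 separated the groups. RT1-Da, a class II alpha chain, had 12.70, 11.95, 12.74 and 11.83 in 2 ppm animals, against 13.13, 12.70, 12.78 and 12.56 in air animals, a difference of -0.49 ± 0.17 (adjusted p = 0.485). Cd74, the invariant chain that guards the peptide groove, had 12.37, 11.50, 12.39 and 11.56 in 2 ppm animals, against 12.65, 12.34, 12.50 and 12.29 in air animals. RT1-DMa and RT1-DMb, which load peptides onto class II, differed by -0.49 ± 0.16 and -0.63 ± 0.19. In RT1-Da, Cd74, RT1-DMa and RT1-DMb animals 232 and 234 were the 2 lowest of the 8, and without both the median of the list was -0.08. Cd74, RT1-Da and Ifi30, a thiol reductase of antigen processing, differed from air by 0.00, 0.04 and 0.01 once air animal 73 was left out too.

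The sequences just upstream of 3 of these genes are shown because class II genes share promoter elements in mammals. A link between these elements and the levels here was not tested. Each is the 250 bases before the annotated start in RefSeq's GRCr8 rat assembly, 5′ to 3′ on the gene's strand. Capitals mark CCAAT, or ATTGG where the match is on the opposite strand. RT1-Da lies on the plus strand (chr20:4515165-4515414), RT1-DMa on the minus strand (chr20:4712336-4712585) and Cd74 on the plus strand (chr18:56526956-56527205).
RT1-Da: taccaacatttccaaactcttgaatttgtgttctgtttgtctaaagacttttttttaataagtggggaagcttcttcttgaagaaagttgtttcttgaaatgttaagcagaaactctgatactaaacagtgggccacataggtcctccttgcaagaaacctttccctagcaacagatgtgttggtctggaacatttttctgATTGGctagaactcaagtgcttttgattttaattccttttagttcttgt
RT1-DMa: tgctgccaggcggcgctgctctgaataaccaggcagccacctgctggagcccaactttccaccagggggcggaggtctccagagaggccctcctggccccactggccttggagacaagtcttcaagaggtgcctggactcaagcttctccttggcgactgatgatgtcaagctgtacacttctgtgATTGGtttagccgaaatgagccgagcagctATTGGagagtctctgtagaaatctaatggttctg
Cd74: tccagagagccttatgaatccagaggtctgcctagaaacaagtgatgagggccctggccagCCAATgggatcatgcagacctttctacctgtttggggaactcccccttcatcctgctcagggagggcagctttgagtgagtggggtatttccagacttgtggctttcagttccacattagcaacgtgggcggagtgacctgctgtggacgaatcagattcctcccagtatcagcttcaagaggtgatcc
The match began 49 bases before the start in RT1-Da, 64 and 34 bases before it in RT1-DMa, and 189 bases before it in Cd74. CCAAT on either strand was present in 10 of the 13 class II list genes with a promoter entry and in 34.0% of 33469 rat promoters of the same length. A match is a description of the letters and not evidence of a factor bound there.

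MHC class I genes lay below air in 13 of 13, with a median of -0.40 and an unadjusted p under 0.05 for 11 (against 8.13% of all genes, lower). The inducible proteasome subunits, which cut proteins into peptides for class I, led the list. Psmb9 had 9.73, 8.98, 9.62 and 8.74 in 2 ppm animals, against 10.55, 10.07, 9.69 and 9.75 in air animals, a difference of -0.74 ± 0.22 (adjusted p = 0.424). The highest exposed animal overlapped the lowest air animal. Psmb8 differed by -0.74 ± 0.25 and Psmb10 by -0.51 ± 0.16, while B2m, the light chain of every class I molecule, differed by -0.21 ± 0.07. Class I genes of the RT1 family are close copies of one another, and their probe sets may read several of them.

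Natural killer and cytotoxic cell genes lay below air in 17 of 19, with a median of -0.26. Of these, 9 had an unadjusted p under 0.05 and a lower mean (against 8.13% of all genes), and 4 lay wholly below air (against 3.76%), Klrb1a, Klrd1, Ctsw and Gzmm. Klrb1a, a receptor of natural killer cells, had 4.90, 4.46, 4.90 and 4.35 in 2 ppm animals, against 5.83, 5.57, 5.14 and 5.10 in air animals, which is 1.69-fold lower at -0.76 ± 0.21 (adjusted p = 0.419). Ctsw, a cathepsin of cytotoxic lymphocytes, had 5.56, 5.30, 5.53 and 5.55 in 2 ppm animals, against 6.24, 5.85, 5.91 and 5.70 in air animals. Ctsw is among the 4 genes picked out by full separation, so all 4 exposed animals are low for it by that choice. Gzmm, a granzyme, averaged 6.60 ± 0.18 in 2 ppm animals and 7.16 ± 0.37 in air animals. Xcl1, a chemokine that activated killer cells release, averaged 5.67 ± 0.28 in 2 ppm animals and 6.40 ± 0.39 in air animals. It belongs to the chemokine list and not to this one. Of the 30 chemokines it was the 1 that lay wholly below air (against 3.76% of all genes). These transcripts are dim. The median of the cytotoxic list was -0.15 without 232 and 234. Over the 11 planned settings other than leaving out an animal it lay between -0.46 and -0.11.

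**Figure D3:**
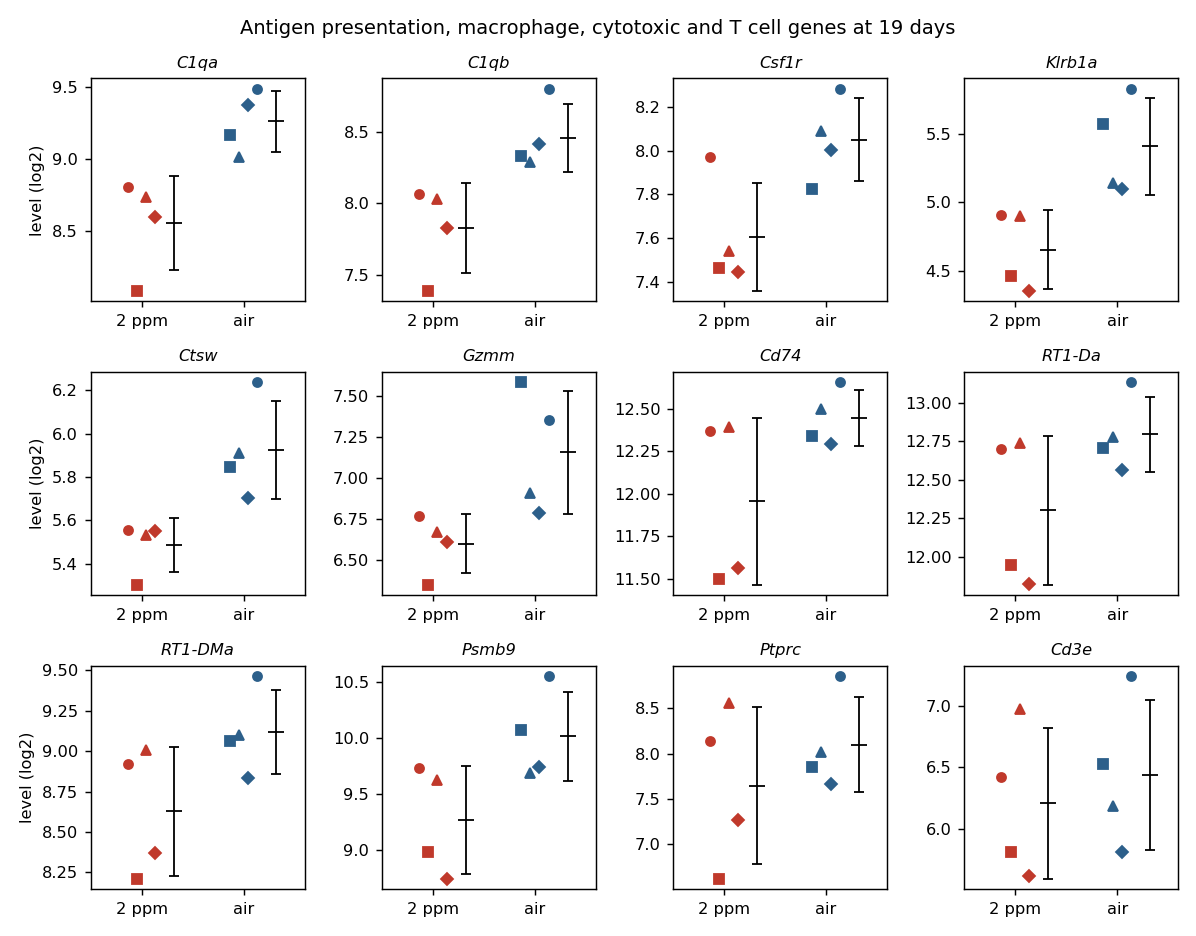
Log2 level of 12 immune genes in each 2 ppm animal (red, left) and each air animal (blue, right) at 19 days, with the mean and SD of each group in black. Marker shapes are those of the other plots (230 and 73 circles, 232 and 75 squares, 233 and 76 triangles, 234 and 77 diamonds). In C1qa, C1qb, Klrb1a, Ctsw and Gzmm, which the text picked out by full separation, all 4 exposed animals lie below the air animals. In Cd74, RT1-Da, Ptprc and Cd3e animals 230 and 233 lie among the air animals.

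T cell genes lay below air in 18 of 22, with a median of -0.24 that was -0.043 without air animal 73 and 0.024 without 232 and 234. An unadjusted p under 0.05 was found with a lower mean for 4, Cd3d, Cd3g, Cd4 and Cd7 (against 8.13% of all genes). With a higher mean it was found for 1, Bcl11b (against 2.83%). Cd3e, a chain of the T cell receptor complex, had 6.42, 5.82, 6.97 and 5.63 in 2 ppm animals, against 7.24, 6.53, 6.19 and 5.81 in air animals, a difference of -0.23 ± 0.28 (adjusted p = 0.820), and 0.03 without air animal 73. Cd7, a surface protein of T and natural killer cells, averaged 7.66 ± 0.35 in 2 ppm animals and 8.31 ± 0.27 in air animals with no overlap. Cd4, the helper T cell coreceptor, which rat macrophages also carry, averaged 5.45 ± 0.13 in 2 ppm animals and 5.85 ± 0.14 in air animals, also with no overlap. Full separation below air was thus found for 2 of the 22 (against 3.76% of all genes). B and plasma cell genes lay below air in 5 of 12, with a median of 0.03. Cd79b, a chain of the B cell receptor, ranged from 4.84 to 6.71 in 2 ppm animals and from 4.95 to 7.19 in air animals, and animals 233, 230 and air animal 73 stood apart as high. Ebf1, which olfactory neurons express as well as B cells, differed by 0.86 ± 0.52 and followed the olfactory genes, highest in 234 and 232 and lowest in air animal 73.

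Dendritic cell genes lay below air in 11 of 12, with a median of -0.33. Only Fscn1 lay wholly below air (1 of 12, against 3.76% of all genes). Irf8, a factor that dendritic cells and monocytes need, differed by -0.50 ± 0.23 (adjusted p = 0.567), and 0.03 without 232 and 234. Itgax, the CD11c integrin, had 5.63, 4.92, 5.98 and 5.19 in 2 ppm animals, against 6.27, 5.63, 5.74 and 5.53 in air animals. Neutrophil genes lay close to air, with 7 of 11 below it and a median of -0.05. S100a8, a calcium-binding protein of neutrophils and stressed epithelium, had 9.07, 8.999, 9.87 and 9.94 in 2 ppm animals, against 8.62, 9.34, 9.13 and 8.28 in air animals, a difference of 0.63 ± 0.55 (adjusted p = 0.736). S100a9, its partner, differed by 0.26 ± 0.51, and Cxcr2, the receptor that draws neutrophils in, by -0.12 ± 0.24. Of mast cell, eosinophil and basophil genes 12 of 16 lay below air, with a median of -0.14. In that list Alox15, a lipoxygenase, was the 1 gene of 16 to lie wholly below air (against 3.76% of all genes). It averaged 7.58 ± 0.26 in 2 ppm animals and 8.29 ± 0.29 in air animals (adjusted p = 0.662).

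Of 30 chemokines 22 lay below air, with a median of -0.23. Cxcl13, which draws B cells into follicles, showed the largest difference among them, -1.25 ± 0.54 (adjusted p = 0.534), with 9.48, 8.27, 8.42 and 8.48 in 2 ppm animals, against 10.03, 10.07, 9.32 and 10.21 in air animals. Ccl5, a T cell chemokine, differed by -0.64 ± 0.24. Ccl2 and Cxcl1, which draw monocytes and neutrophils, had means of 6.45 ± 0.42 and 7.41 ± 0.98 in 2 ppm animals, against 7.06 ± 0.27 and 7.50 ± 0.21 in air animals, so neither mean lay above air. Of 29 cytokines 22 lay below air with a median of -0.08. Ltb, the lymphotoxin that maintains lymphoid tissue, had 7.73, 6.52, 8.01 and 6.69 in 2 ppm animals, against 8.84, 7.96, 7.86 and 7.78 in air animals, a difference of -0.87 ± 0.25 (adjusted p = 0.424). Tnf averaged 5.53 ± 0.19 in 2 ppm animals and 6.10 ± 0.27 in air animals without overlap, and Il1b overlapped widely, at 7.75 to 9.33 in 2 ppm animals and 8.51 to 10.55 in air animals. Medians were -0.14 for 15 chemokine receptors and -0.14 for 20 cytokine receptors. That of chemokine receptors was -0.027 without animal 234, 0.047 without 232 and 234, and 0.049 over the brighter probe sets alone. That of cytokine receptors was -0.059 without animal 232 and 0.039 without 232 and 234.

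Interferon response genes lay below air in 30 of 32, with a median of -0.32. An unadjusted p under 0.05 was found for 8, all lower (against 8.13% of all genes). Isg15, a ubiquitin-like protein that interferon induces, had 9.15, 8.22, 8.90 and 8.38 in 2 ppm animals, against 9.67, 9.15, 9.30 and 9.34 in air animals, with a difference of -0.70 ± 0.39 (adjusted p = 0.614). The highest exposed value lay just under the lowest air value. Tnfsf10, the death ligand TRAIL, differed by -0.65 ± 0.29, and Oas1a, an antiviral sensor of double-stranded RNA, by -0.62 ± 0.27. Of 12 complement genes 9 lay below air, with a median of -0.17, which was 0.011 with the air animals of 8 and 19 days as the control, 0.009 with those of all 5 times and 0.035 without 232 and 234. C3, the central complement protein, differed by -0.34 ± 0.27. Cd55, which shields cells from complement, lay wholly above air, with 7.68, 7.74, 7.54 and 8.57 in 2 ppm animals, against 6.57, 7.40, 7.46 and 7.11 in air animals (0.75 ± 0.30, adjusted p = 0.519). Pigr, the epithelial carrier of IgA, had 11.54, 11.18, 11.69 and 10.82 in 2 ppm animals, against 11.77, 11.49, 11.77 and 11.86 in air animals.

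Of 20 basal and squamous genes 5 lay below air and the median was 0.20. Krt10, a keratin of cornified epithelium, had 9.06, 11.98, 12.89 and 10.43 in 2 ppm animals, against 9.19, 7.91, 10.01 and 9.002 in air animals, a difference of 2.06 ± 1.02 (adjusted p = 0.576). Animals 232 and 233 were the highest, and 230 lay inside the air range. Krt1, its partner, differed by 1.93 ± 1.01. Krt5 differed by 0.11 ± 0.26, and Foxj1, the master factor of cilia, by -0.31 ± 0.21. The 7 ciliated cell genes had a median of -0.023, with 5 below air and a lowest value of -0.31. Tuft cells, sensory cells of the epithelium, gave a mixed list: Pou2af3, a cofactor of their identity, averaged 8.46 ± 0.33 in 2 ppm animals and 8.95 ± 0.14 in air animals without overlap, and Gnat3, a taste G protein, differed by -0.65 ± 0.27. Pou2f3, their defining factor, differed by 0.46 ± 0.21, but by -0.03 on its other probe set.

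Stress and metabolic genes gave no call either. Hmox1, heme oxygenase, had 7.84, 7.65, 7.68 and 7.56 in 2 ppm animals, against 8.41, 7.81, 7.75 and 7.82 in air animals (-0.27 ± 0.23, adjusted p = 0.734). Srxn1, sulfiredoxin, differed by 0.26 ± 0.25 and Nqo1, a quinone reductase, by 0.14 ± 0.14. Maff, a small Maf factor, lay wholly above air, at 6.83, 6.88, 6.87 and 6.64 in 2 ppm animals, against 6.62, 6.09, 6.48 and 6.16 in air animals (0.47 ± 0.25, adjusted p = 0.599). Adh5, which oxidises glutathione-bound formaldehyde, differed by 0.19 ± 0.14, and Aldh2, mitochondrial aldehyde dehydrogenase, by -0.31 ± 0.15. Akr1b1, aldose reductase, averaged 9.76 ± 0.13 in 2 ppm animals and 10.07 ± 0.06 in air animals without overlap. Cdkn1a, Mki67 and Hspa1a, markers of p53 activity, division and heat shock, differed by -0.20 ± 0.20, 0.11 ± 0.24 and -0.16 ± 0.19. Mki67 ran against its list, where 23 of 28 cell cycle genes lay below air (against 59.4% of all genes). The median of that list was -0.10, against -0.03 for all genes. Medians were -0.075 for 12 p53 targets and -0.066 for 12 heat shock chaperones, each with 9 below air. Beside Bmal1, the clock repressors Per2 (0.37 ± 0.13), Cry2 (0.33 ± 0.11) and Per1 (0.38 ± 0.15) lay above air without a call (no clock time of collection was used here).

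Against 6 ppm at 19 days, 12 of 31042 probe sets passed (0.0387%), 2 higher (0.00644%) and 10 lower (0.0322%) at 2 ppm. None of those with a gene name belongs to an immune list, which at a share of 0.0387% says nothing about immune genes. Hmox1 averaged 1.78 ± 0.23 less at 2 ppm than at 6 ppm on the log2 scale, with 7.84, 7.65, 7.68 and 7.56 in 2 ppm animals, against 9.14, 9.45, 9.70 and 9.55 in 6 ppm animals (3.43-fold lower, adjusted p = 8.849e-07). Srxn1 was 3.55-fold lower (adjusted p = 1.15e-06), and Tnfrsf12a, the receptor of the cytokine TWEAK, 2.79-fold lower (adjusted p = 8.849e-07). Fosl1, an AP-1 factor, was 2.43-fold lower, Akr7a3, an aldehyde reductase, 2.39-fold lower, and Maff 2.29-fold lower. The higher genes were Zfp729 and Gtpbp3, at 0.50 ± 0.10 and 0.56 ± 0.12. The other 4 lower probe sets are a second one for Srxn1 and 3 that carry no gene name in the annotation used. Without animals 232 and 234, 3 probe sets were called, those of Hmox1, Srxn1 and Tnfrsf12a. A fit of the compared arrays alone called 4, and there Srxn1 (adjusted p = 0.444), Fosl1, Akr7a3, Maff, Zfp729 and Gtpbp3 lost their call. Leaving out 1 animal gave 4 calls without 6 ppm animal 310 or 312, 5 without 2 ppm animal 232, 6 without 234, 26 without 233, 62 without 6 ppm animal 309 and 71 without 308. With RNA integrity as a covariate the count was 176, in a fit that also drops 2 ppm animal 230 and 6 ppm animal 308. The part of the dropped animals in that count was not tested.

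**Figure D4:**
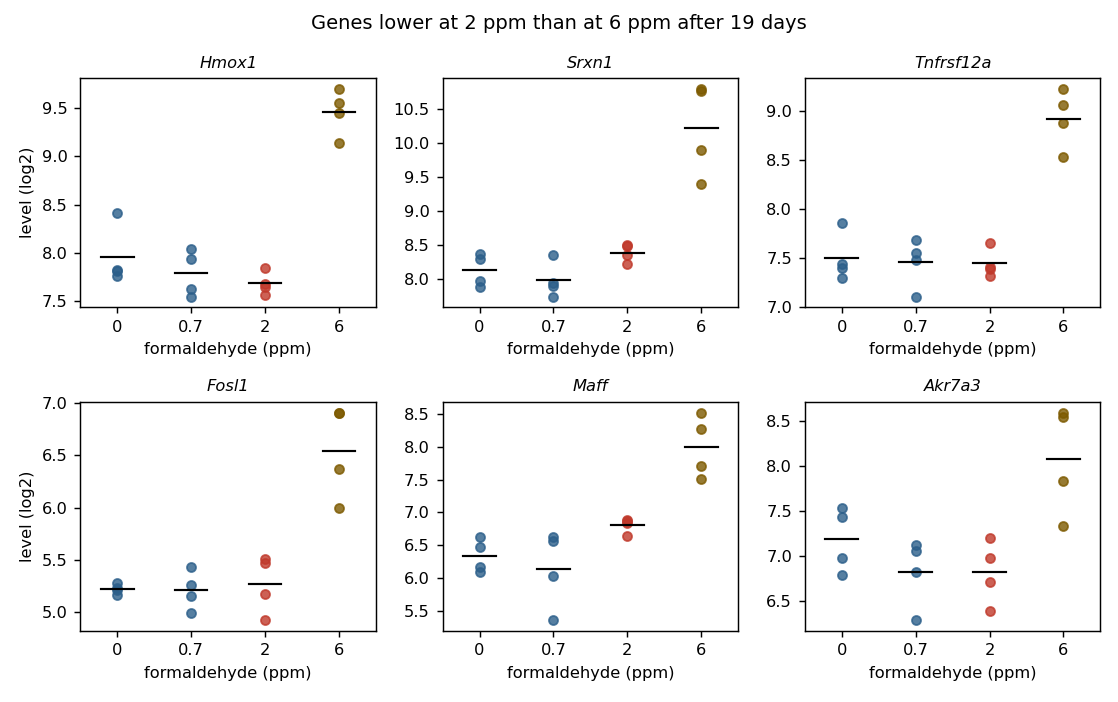
Log2 level of 6 genes in each animal at 19 days, by dose of formaldehyde from air to 6 ppm, with black bars at the group means. Red points are the 2 ppm animals. In Hmox1, Srxn1, Tnfrsf12a, Fosl1 and Maff every 6 ppm animal lies above every animal of the other groups, and the 2 ppm animals lie at the level of air or, for Maff, just above it.

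Immune medians lay nearer to 0 against the other doses at 19 days. The median of the 306 immune genes was -0.06 against 6 ppm and -0.09 against 0.7 ppm, beside -0.26 against air, and these comparisons share the 2 ppm animals. The mean of macrophage genes was 7.72 ± 0.14 in air, 7.49 ± 0.13 at 0.7 ppm, 7.26 ± 0.28 at 2 ppm and 7.32 ± 0.21 at 6 ppm (SD, n = 4 each). Pan-leukocyte genes averaged 7.70 ± 0.35 in air, 7.41 ± 0.18 at 0.7 ppm, 7.29 ± 0.43 at 2 ppm and 7.38 ± 0.16 at 6 ppm. In both lists the air mean was the highest of the 4 group means. Against 0.7 ppm no probe set passed (0 of 31042, 0%; smallest adjusted p 0.167, 2270 with an unadjusted p under 0.05). C1qa averaged 9.26 ± 0.21 in air, 9.005 ± 0.27 at 0.7 ppm, 8.55 ± 0.33 at 2 ppm and 8.57 ± 0.25 at 6 ppm.

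The 2 ppm effect at 19 days was set against the 2 ppm effect at 8 days, and no probe set passed that test of the difference (0 of 31042, 0%; smallest adjusted p 0.526, 2754 with an unadjusted p under 0.05). The median difference of the 2 effects was -0.20 for the 306 immune genes and -0.05 for all genes. Over time itself many genes passed: 2151 probe sets (6.93%) between 19 and 8 days at 2 ppm, 927 higher (2.99%) and 1224 lower (3.94%) at 19 days, and 1449 (4.67%) in air, 884 higher (2.85%) and 565 lower (1.82%). The split depends on the scaling: with cyclic loess it was 1207 higher and 796 lower at 2 ppm, and with median centring 782 higher and 1693 lower at 2 ppm and 726 higher and 748 lower in air. Without animals 232 and 234 the count at 2 ppm was 287, and it was 1226 without 232 alone and 884 without 234 alone. Without 1 of the 8-day 2 ppm animals 220, 221 and 222 it was 1182, 1307 and 1228 in that order. In air it was 919 without animal 73 and 813 without animal 76. These 2 comparisons share no animal, and 574 probe sets changed in the same direction in both, 26.7% of those at 2 ppm and 39.6% of those in air, with 0 in opposite directions. Aqp1, the water channel of vessels, rose by 2.05 ± 0.26 at 2 ppm and by 2.20 ± 0.24 in air, and Tm4sf1, a tetraspanin-like protein of endothelium, by 1.87 ± 0.21 at 2 ppm and by 1.80 ± 0.20 in air. Angpt2, an endothelial growth factor, rose by 1.55 ± 0.26 at 2 ppm and by 1.96 ± 0.25 in air, and Slu7, a splicing factor, by 1.15 ± 0.14 at 2 ppm and by 0.95 ± 0.13 in air. Csnk2a1, a kinase subunit, fell by 0.64 ± 0.08 at 2 ppm and by 0.45 ± 0.08 in air. Of 16 genes of stroma and vessels 9 rose at 2 ppm and 8 in air, and of 28 cell cycle genes 9 fell at 2 ppm and 5 in air. Of all genes 2.98% rose at 2 ppm and 2.98% in air, and 6.28% fell at 2 ppm and 1.93% in air.

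Of the 306 immune genes, 6 rose and 4 fell between 8 and 19 days at 2 ppm (against 2.98% and 6.28% of all genes). In air 16 of the 306 rose and 1 fell, Rfxank (against 2.98% and 1.93% of all genes). The genes that rose at 2 ppm, named after their values were seen, were Thy1, Mrc1, Cxcl14, Ackr1, Serping1 and Cd55, and the first 5 of them also passed in air. Without animals 232 and 234 the changes at 2 ppm were 1.33 for Thy1 and 1.35 for Cxcl14, both still called, and 1.15 for Mrc1, 0.77 for Ackr1, 1.30 for Serping1 and 0.66 for Cd55, which lost their call (adjusted p = 0.178, 0.0699, 0.0614 and 0.537 in that order). Calls at 2 ppm were also lost for Mrc1 without any 1 of animals 230, 234, 220 and 221. Ackr1 lost its call without any 1 of 230, 233, 220 and 221, and Cd55 without any 1 of 232, 234, 220 and 222. With the compared arrays alone Mrc1, Ackr1 and Cd55 lost theirs (adjusted p = 0.245, 0.0828 and 0.21 in that order). With the first array set alone Mrc1 and Cd55 lost theirs (adjusted p = 0.0509 and 0.0511). Thy1 lost its call at 2 ppm without 8-day animal 221 (adjusted p = 0.0601), with the compared arrays alone (0.105) and with RNA integrity as a covariate (0.79, adjusted p = 0.114). The fit with RNA integrity also drops animal 230 and 8-day animal 221. In that fit Mrc1, Ackr1 and Serping1 lost their calls at 2 ppm too (adjusted p = 0.287, 0.146 and 0.067 in that order). In air Ackr1 lost its call without any 1 of animals 75, 76, 77, 64, 65 and 68, Mrc1 without any 1 of 73, 75, 76, 65 and 68, and Serping1 without 76 or with the compared arrays alone (adjusted p = 0.0621). Ackr1 also lost its air call with the compared arrays alone (adjusted p = 0.165), the first array set alone (0.0615) and median centring (0.055). Mrc1, the mannose receptor of tissue macrophages, rose by 1.03 ± 0.33 at 2 ppm and by 1.11 ± 0.31 in air, and Cxcl14, a chemokine of epithelium and stroma, by 1.47 ± 0.27 at 2 ppm and by 1.54 ± 0.26 in air. Thy1, which stroma and T cells carry, rose by 1.20 ± 0.29 at 2 ppm and by 1.70 ± 0.27 in air. The genes that fell at 2 ppm were Cd74 (-0.47 ± 0.15), RT1-CE5 (-0.40 ± 0.13), Cxcl16 (-0.48 ± 0.14) and Tnfrsf1a (-0.42 ± 0.12), and none of them was called in air, where Cd74 differed by 0.08 ± 0.15. All 4 falls lost their call without animal 232, without animal 234 and without 8-day animal 220. They also lost it with the compared arrays alone (adjusted p = 0.153 to 0.277). Cd74, RT1-CE5 and Cxcl16 lost theirs without 221 and without 222 too, and Cd74 and RT1-CE5 with cyclic loess. RT1-CE5 also lost its call with the first array set alone and with array weights. Without 232 and 234 together the falls were -0.05 for Cd74, -0.12 for RT1-CE5, -0.17 for Cxcl16 and -0.20 for Tnfrsf1a. Hmox1 fell by 1.02 ± 0.23 between 8 and 19 days at 2 ppm (adjusted p = 0.00349), beside 0.01 ± 0.22 in air, and lost its call without animals 232 and 234 together (adjusted p = 0.0921). Srxn1 and Osgin1, another Nrf2 target, also passed as lower at 19 days. Srxn1 lost its call without any 1 of animals 232, 234, 220 and 221 and with the compared arrays alone (adjusted p = 0.0628 to 0.129), and Osgin1 without 234 (adjusted p = 0.0776) and with the compared arrays alone (0.0881). For Hmox1 the difference of the 2 ppm effect between the times was -1.03 ± 0.32 (adjusted p = 0.526).

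The immune lists were also followed over time. The mean of MHC class II genes was 9.60 ± 0.09 in 2 ppm animals at 8 days and 9.39 ± 0.39 at 19 days, beside 9.59 ± 0.10 and 9.81 ± 0.22 in air animals at the same times. For macrophage genes it was 7.21 ± 0.24 at 8 days and 7.26 ± 0.28 at 19 days in 2 ppm animals, beside 7.35 ± 0.25 and 7.72 ± 0.14 in air animals. The 2 ppm level of macrophage genes thus lay at 19 days where it had been at 8 days, and the air level lay higher at 19 days than at 8 days. The median over the list of the change in single genes was -0.01 at 2 ppm and 0.30 in air. Klrb1a averaged 4.66 ± 0.46 at 8 days and 4.65 ± 0.29 at 19 days in 2 ppm animals, beside 4.85 ± 0.18 and 5.41 ± 0.35 in air animals. The difference of the effects was not called for it (-0.56 ± 0.28, adjusted p = 0.565).

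**Figure D5:**
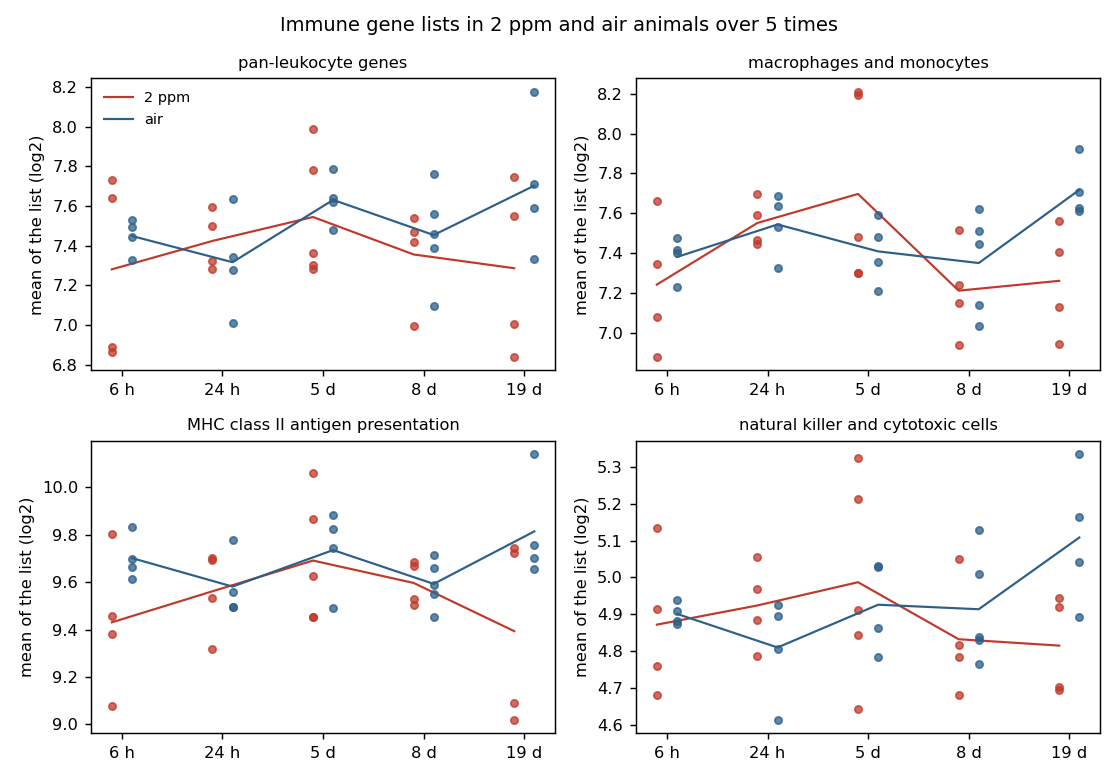
Mean log2 level of 4 immune gene lists in each animal at 5 times of collection, with 2 ppm in red (left of each time) and air in blue (right), and lines through the group means. At 19 days the air means stand above the 2 ppm means in all 4 lists, with the 2 ppm animals in a lower and an upper set for pan-leukocyte and class II genes.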

How the data were processed

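The comparisons use log2 expression values from 98 Affymetrix Rat230_2 arrays, deposited by the authors in the series' value table. The sources used here do not give the summarisation or normalisation. Array medians and sorted values were nearly equal, with an SD of at most 0.065 between arrays at any rank. Of 31099 probe sets, 57 controls were left out. The platform annotation gave 20826 of the others 1 symbol, 436 several and 9780 none, and of several probe sets for 1 gene the brightest on average was used (14217 genes).

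limma 3.58.1 in R 4.3.3 was fitted to all 98 arrays in 24 groups (74 residual degrees of freedom), with 6 contrasts and Benjamini-Hochberg adjustment over 31042 probe sets. A call is an adjusted p under 0.05, and ± after a log2 difference is its SE. The fit was tested on simulated data. Intensities give no read depth, so precision rests on the number of animals.

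The comparison and 32 gene lists were chosen with earlier results of these data known. Genes were named by rule: 12 in each direction, called or else not overlapping with the smallest p, up to 4 of each list, members behind counts of 5 or fewer, a short standing set, and up to 3 called genes of each other comparison. Omp, Aif1, Adgre1 and further genes of the dose and time comparisons were named after their values were seen. Promoters are RefSeq's, 250 bases before each start. Alternatives covered the arrays fitted, scaling, dim probe sets, array weights, the prior, RNA integrity, the control animals, the probe set and each animal left out.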

Additional observations from a re-analysis of the deposited data

Results flagged for a closer look

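Of 268 pairs of a gene and a group of 4 animals, 18 held an animal far from the other 3, and chance gives about 1 in 20. In the 2 ppm group, animal 234 was high for Suz12 (8.45, the nearest animal at 7.97) and Rc3h2 (9.35, nearest 9.01). Animal 232 was low for Ctsw (5.30, nearest 5.53) and Il1b (7.75, nearest 9.19), and animal 230 was low for Fas, a death receptor (6.11, nearest 6.30).

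In the air group, animal 73 was high for Rab29 (9.32, nearest 8.97), Cxcl16 (11.25, nearest 10.89), Cd79b (7.19, nearest 5.23), C1qc (9.02, nearest 8.71), Ltb (8.84, nearest 7.96) and Hmox1 (8.41, nearest 7.82). It was low for Irs2 (6.91, nearest 7.38), Ubr3 (8.74, nearest 9.11), Irgq (8.10, nearest 8.17) and Ebf1 (6.96, nearest 8.36). Animal 76 was low for Cope (10.25, nearest 10.35) and high for Cxcr2 (5.20, nearest 4.61), and animal 75 was high for Gpatch8 (6.94, nearest 6.79).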

How the results depend on the processing

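Against air at 19 days 0 probe sets were called under 9 of 11 planned settings other than leaving out an animal. The exceptions were the widened controls, with 143 calls (77 higher, 66 lower) for air of 8 and 19 days and 1418 (538 higher, 880 lower) for air of all 5 times. Leaving out 1 animal gave 0 to 1 calls against air, 0 to 1 against 0.7 ppm, 0 to 1 for the difference of effects, 4 to 71 against 6 ppm, 884 to 2752 over time at 2 ppm and 813 to 1541 over time in air. Each single call of the first 3 came without animal 233. Against 6 ppm the count was 4 with the compared groups alone, 19 with the first array set, 7 with array weights, 176 with RNA integrity (83 higher, 93 lower) and 3 without animals 232 and 234. The fit with RNA integrity also drops animals 230 and 308, which have no such number. Over time it was 591 at 2 ppm and 897 in air with the compared groups alone, 2497 in air with array weights, and 287 at 2 ppm without 232 and 234. The causes were not tested. Leaving out animals 232 and 234, with or without air animal 73, was chosen after seeing the data, and moved the immune median to -0.044 and 0.014. No paired analysis was possible because no animal number is shared between groups. With 4 animals a group, signal near background limits dim transcripts.

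Some differences of single genes from air changed sign, and none of these was called. With RNA integrity, in a fit that also drops animal 230, they were -0.056 for Cd79b and 0.031 for Cxcl1. With air of 8 and 19 days they were -0.32 for Krt5 and -0.20 for Mki67, and with air of all times -0.021 for Zc3h3, -0.049 for Cd79b, -0.29 for Krt5, -0.083 for Mki67 and 0.018 for Hbb. Other probe sets gave -0.076 for Atxn1l, -0.099 for Atxn1l, -0.034 for Pou2f3, -0.11 for Srxn1, -0.0003 for Per2 and 0.0061 for Aif1. Without animals 232 and 234 the values were 0.25 for Ptprc, 0.25 for Cd3e, 0.084 for Cd3d, 0.31 for Pou2af1, 0.034 for Irf8, 0.012 for Itgax, 0.065 for Cxcr2, 0.46 for Cxcl1, 0.013 for Irf9, 0.16 for C3, -0.099 for Ncam1, -0.25 for Cyp1a2, 0.038 for Cdkn1a and 0 for Adh5. Without air animal 73 as well they were 0.50 for Ptprc, 0.25 for Coro1a, 0.11 for Laptm5, 0.029 for Evi2b, 0.24 for Ptprcap, 0.52 for Cd3e, 0.38 for Cd3d, 0.066 for Cxcl16, 0.69 for Pou2af1, -0.13 for Ebf1, 0.0036 for Cd74, 0.037 for RT1-Da, 0.0086 for Ifi30, 0.21 for Irf8, 0.17 for Itgax, 0.020 for Cpa3, 0.47 for Cxcl1, 0.026 for Tnfsf10, 0.10 for Irf9, 0.26 for C3, -0.25 for Adcy3, -0.28 for Gnal, -0.41 for Ncam1, -0.64 for Cyp1a2, -0.32 for Omp, -0.11 for Pou2f3, -0.0034 for Nqo1, 0.099 for Cdkn1a and -0.13 for Adh5. Leaving out 1 animal gave -0.49 to 0.033 for Cd3e, -0.29 to 0.56 for Cd79b, -0.54 to 0.24 for Cxcl1, -0.19 to 0.043 for Cxcr2, -0.18 to 0.33 for Krt5, -0.017 to 0.26 for Mki67 and -0.44 to 0.15 for Pou2af1.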
